A study of Xenopus laevis with 6 samples.

Results

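Isolated Etv6 peaks are defined here as consensus ChIP-seq peaks that lay on a chromosome, measured at most 1 kb, and had no other peak of any length within 100 kb. Of the 9128 peaks in the consensus list, 2440 (26.7%) met this definition. A further limit is that 3010 peaks of the list lay on scaffolds outside the chromosomes. Those could neither qualify nor count as a neighbour, so that a neighbour there would be missed. The set rests on gap and length alone and is not the set of peaks in the regions of transcription start sites. For that different set the study gives the same number and share. The isolated peaks were 39.9% of the 6118 peaks on the 18 chromosomes. They were 44.5% of the 5485 peaks up to 1 kb there, and the remaining 3045 of those peaks are called the other peaks below. The peaks came from the somites of wild-type X. laevis embryos of the J-strain at stage 22, immunoprecipitated with a custom antibody against Etv6 in 3 samples, each with an input sample as control. Embryos were pooled for each ChIP, and the dissected explants also contained neural tube, notochord and hypochord, with a little dorsal endoderm, so that a peak cannot be assigned to somitic cells alone. The list holds 1 merged peak set and no value for a single sample, so that neither the depth of a library nor a replicate error is known from it, and the labelled tissue could not be checked against marker genes. The values below describe this list, and intervals cover counting error only.

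Etv6 is a transcription factor of the ETS family, best known as a repressor, that is required for blood stem cell development in vertebrates. X. laevis arose from the hybridisation of a pair of frog species and carries a long (L) and a short (S) version of each chromosome, so that many genes exist as homeologous L and S copies. In vertebrate genomes, binding sites of transcription factors commonly gather near gene starts and in gene-dense regions, while wide intervals between sites are often poor in genes. A peak far from all others marks a site of binding with no further site of the same factor detected nearby.

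Isolation was measured as the gap to the nearest other peak, from the end of the earlier peak to the start of the later one. Among the isolated peaks the median nearest gap was 258.0 kb, with quartiles at 163.9 and 448.2 kb, whereas the other peaks had a median of 18.7 kb and quartiles at 1.61 and 49.1 kb. These gaps were used to choose the peaks and are given as a description. The wider of the gaps on either side of an isolated peak had a median of 730.0 kb and reached 6231.0 kb. A nearest gap over 200 kb was found for 1553 isolated peaks (63.6%), over 500 kb for 498 (20.4%) and over 1000 kb for 117 (4.80%). Only 8 isolated peaks (0.328%) had no other peak within 2000 kb. On a log scale the number of peaks changed little across the limit, with 659 other peaks at 56.2 to 100 kb and 733 isolated peaks at 100 to 177.8 kb.

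**Figure D1:**
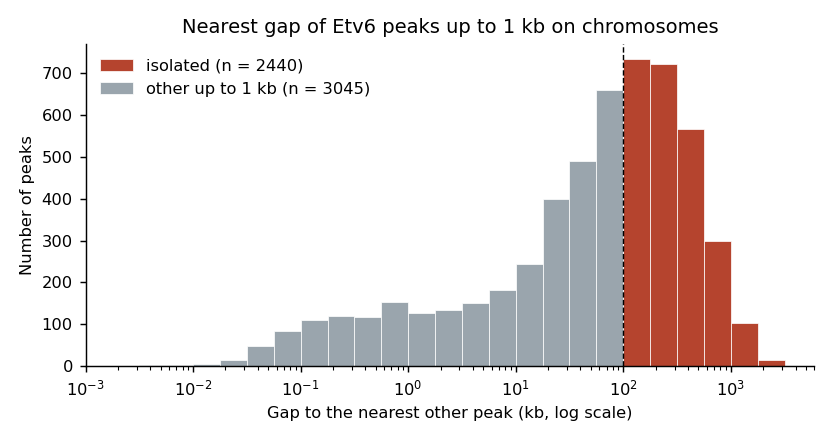
Number of Etv6 peaks up to 1 kb on chromosomes (y axis) by the gap to the nearest other peak in kb (x axis, log scale), with isolated peaks in red, other peaks in grey and the limit of 100 kb as a dashed line. The 2440 isolated peaks form the upper end of a single broad distribution, whose other 3045 peaks extend down to a gap of 1 bp.

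The most isolated peak lay on chromosome 8L of the v9.1 genome from 88523999 to 88524652, measured 655 bp and was 2787.0 kb from its nearest neighbour. A peak of 493 bp on 1L from 372950 to 373441 followed at 2537.0 kb, but it is the first peak of its chromosome and was judged on 1 gap only. Next came a peak of 370 bp on 7L from 61850252 to 61850620, at 2536.2 kb. None of these peaks is listed at a direct target gene. In all, 17 isolated peaks were the first or the last of their chromosome. At the limit of the gap, the closest peaks inside had gaps of 100006, 100014 and 100427 bp, and the closest outside had gaps of 99857 bp and, for a pair of neighbours on 8L, 99737 bp. At the limit of length, isolated peaks of 999, 998 and 997 bp were inside, while peaks of 1001, 1002 and 1002 bp with gaps over 100 kb were outside. The length limit removed 184 peaks, which were 29.1% of the 633 chromosomal peaks over 1 kb.

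Isolated peaks were of about the same length as the other peaks up to 1 kb. That length limit took out a larger share of the peaks with close neighbours, as given in the next paragraph. Their median length was 516.5 bp (95% interval 507 to 527 bp), and quartiles lay at 414 and 659 bp within limits of 205 to 999 bp. The other peaks up to 1 kb had a median of 528 bp (520 to 539 bp), with quartiles at 418 and 683 bp. These intervals overlap, and the difference was small against the spread within either set, which had an SD of 171.1 bp among isolated and 180.8 bp among other peaks. By chromosome, the median of the isolated peaks was below that of the other peaks on 13 of 18 chromosomes and above it on 5. The difference of medians, isolated minus other, ran from -69 bp on 2S to 57 bp on 6S. The upper end of the length range was thinner among isolated peaks, of which 95 (3.89%) measured over 900 bp, against 181 (5.94%) of the other peaks. Peaks of 400 to 500 bp were the most frequent class in both sets, with 610 isolated and 696 other peaks.

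Within the isolated peaks, median length did not change steadily with the gap. It was 516 bp (95% interval 501 to 531 bp) at gaps of 100 to 200 kb, 530 bp (513 to 545 bp) at 200 to 500 kb and 490.5 bp (472 to 513 bp) over 500 kb. The last class holds 498 peaks, and the 1942 peaks at 100 to 500 kb together had a median of 524 bp (512 to 534 bp), an interval that meets that of the last class at its lower end. The same classes without the length limit showed where peaks over 1 kb lay. They made up 22.8% of peaks with a neighbour within 1 kb (exact 95% confidence interval 20.0 to 25.7%) and 15.6% of those with a gap of 1 to 10 kb. At gaps of 100 to 200 kb, 200 to 500 kb and over 500 kb they made up 7.22%, 7.05% and 6.57%. The share of long peaks was thus similar in every class past 10 kb, where it lay between 6.32 and 8.28%. No test was run on these classes, since peaks are not replicates and the list gives no length per sample.

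The shortest isolated peaks measured 205 bp on 1L (85343690 to 85343893) and 222 bp on 6S (38216513 to 38216733). Next came a peak of 225 bp on 7S (10270022 to 10270245). It shared this length with another isolated peak, at no listed gene and with a nearest gap over 500 kb. The 7S peak given here is listed at plekha1.S, which encodes a phosphoinositide-binding adaptor with a pleckstrin homology domain. The longest measured 999 bp on 7S (34093861 to 34094858), 998 bp on 1S (112878252 to 112879248) and 997 bp on 8S (81730580 to 81731575), and none of the 3 is listed at a direct target. Starts are printed 2 bp after the deposited start, as explained in the processing section, so that a length is greater than the span of the printed positions.

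By subgenome, 1310 isolated peaks (53.7%, exact 95% confidence interval 51.7 to 55.7%) lay on L and 1130 on S chromosomes, and of the other peaks 54.2% (52.4 to 56.0%) lay on L. More isolated peaks were found on the L chromosome in 8 of the 9 homeologous pairs, with 187 on 2L and 146 on 2S, and 164 on 5L and 118 on 5S, as the widest differences. The exception was the pair 9_10, with 130 isolated peaks on L and 133 on S. The L chromosomes are longer, however. Chromosome lengths were not used here, and the span from the first to the last peak of a chromosome was taken in their place, 1362.2 Mb in sum over L and 1136.2 Mb over S. Per Mb of this span, there were 0.962 isolated peaks on L and 0.995 on S, and only 3 of the 9 pairs had the higher value on L. Median length was 515 bp on L and 518 bp on S, and median nearest gap 261.3 kb on L and 256.3 kb on S. Isolated peaks thus took an almost equal share of the peaks up to 1 kb on both subgenomes, 44.2% on L (42.4 to 46.1%) and 44.8% on S (42.8 to 46.7%).

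**Figure D2:**
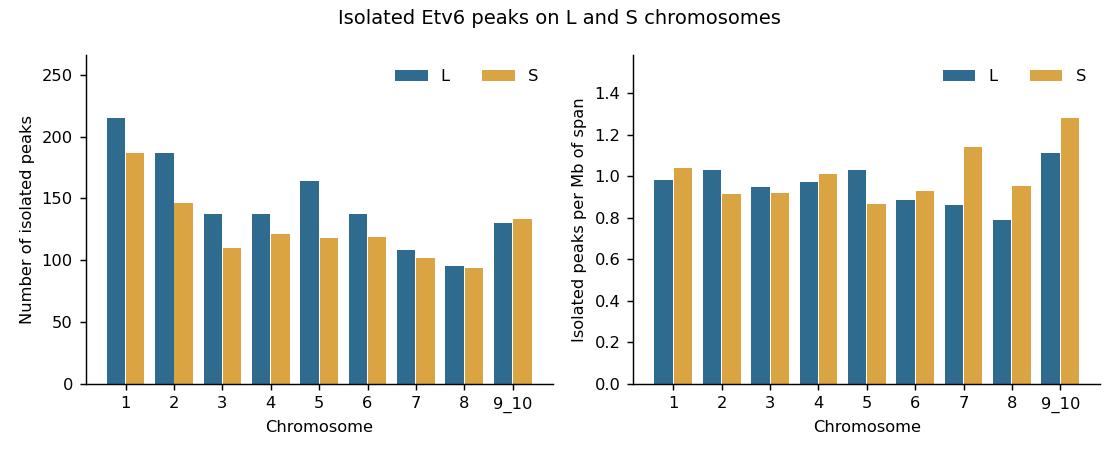
Isolated Etv6 peaks for each chromosome, as a number (left) and per Mb of the span from the first to the last peak (right), with L in blue and S in yellow; both y axes start at 0. The L chromosome has more isolated peaks in 8 of 9 pairs, but more per Mb in only 3 of them.

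The number of isolated peaks followed the size of the chromosome. Chromosome 1L had the most, with 215, and chromosome 8S the fewest, with 94. Per Mb of span, the values lay between 0.791 on 8L and 1.28 on 9_10S, a ratio of 1.62. The peaks that were not isolated varied more, from 1.01 per Mb on 1L to 2.07 on 3L and on 9_10L, a ratio of 2.06. Over the 18 chromosomes, Pearson's r of the peak number with span was 0.916 for isolated peaks and 0.461 for all peaks that were not isolated, given as a description. Because the definition limits how close isolated peaks can be, a part of this evenness follows from the rule. As a share of the peaks up to 1 kb, isolated peaks ran from 34.8% on 3L and 35.2% on 8L to 53.0% on 1L.

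Along the chromosomes, pooled, isolated peaks were spread evenly, and the other peaks were gathered at the ends. With the span of each chromosome divided into 10 bins of equal size, each bin held between 9.26 and 11.5% of the isolated peaks. The other peaks ran from 5.58% in bin 6 to 17.8% in bin 1. Bins 1 and 10 together held 489 isolated peaks (20.0%, exact 95% confidence interval 18.5 to 21.7%), against 1000 other peaks (32.8%, 31.2 to 34.5%). The pattern was alike on both subgenomes. On L, bin 1 held 10.1% of isolated and 19.2% of other peaks, and on S it held 10.3% of isolated and 16.2% of other peaks. In bin 6, isolated peaks were 59.5% of all peaks up to 1 kb, the highest of the 10 values, and in bin 1 they were 31.4%, the lowest. Density and isolation are linked by the definition, so these shares describe where peaks were sparse and were not tested.

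**Figure D3:**
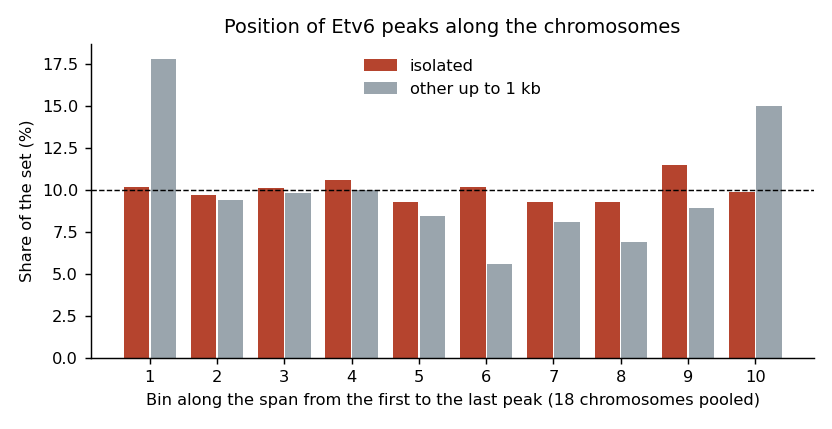
Share of isolated (red) and other (grey) Etv6 peaks up to 1 kb in percent (y axis) in each of 10 equal bins along the span from the first to the last peak, over 18 chromosomes; the dashed line marks an even spread. Isolated peaks stay between 9.26 and 11.5% in every bin, while other peaks reach 17.8% in bin 1 and 15.0% in bin 10.

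Neighbouring isolated peaks were counted as runs. A run was a stretch of neighbouring peaks that were all isolated, and the 2440 isolated peaks fell into 847 runs. Of these runs, 331 held a single peak, 188 held 2 peaks and 328 held 3 or more, and the last kind contained 1733 peaks (71.0%). Every wide gap is shared by the peaks on both of its sides, so that the definition itself favours runs, and these counts are a description. Runs of 10 or more numbered 25. The longest had 25 peaks and covered 15.1 Mb of 1S, from 141469047 to 156610692. Gaps inside it ran from 111.2 to 2829.0 kb, with a median of 447.8 kb, and its peaks measured 360 to 981 bp. Direct targets were listed at 3 of them (12%, against 9.80% of all isolated peaks), man2a1.S, ell2.S and a gene known by the locus name Xelaev18010822m.g. man2a1 encodes a Golgi mannosidase of N-glycan processing, and its peak (146014628 to 146015213) measured 587 bp with a nearest gap of 571.0 kb. ell2 encodes an elongation factor for RNA polymerase II, and its peak (149365716 to 149366462) measured 748 bp with a nearest gap of 219.6 kb.

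Another run, on 7S, is described because of its direct targets and was chosen after the values had been seen. Its 14 peaks covered 7.81 Mb from 27455217 to 35269308, and 6 of them (42.9%) are listed at direct target genes. That share was 9.80% over all isolated peaks and 15.7% over those on 7S. In order along the chromosome these are march8.S, mcu.S, ddit4.S, ppa2.S, pitx3.S and Xelaev18037152m.g. march8 encodes a membrane-bound E3 ubiquitin ligase, mcu the pore of the mitochondrial calcium uniporter, and ppa2 the mitochondrial inorganic pyrophosphatase. The first 4 of these peaks were direct neighbours in the list, separated by gaps of 359.9, 264.3 and 462.3 kb, and measured 719, 764, 491 and 651 bp. The same run holds the longest isolated peak of all, of 999 bp.

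A direct target gene is a gene that the study lists with an Etv6 peak in the region of its transcription start site (TSS) and with a change of expression in Etv6-deficient somites. Only the names and positions in that list were used here. Of the 2440 isolated peaks, 239 overlapped a listed peak, 1 gene to each peak. This share of 9.80% (exact 95% confidence interval 8.64 to 11%) stood beside 8.18% (7.23 to 9.21%) for the other peaks, 249 of 3045, and beside 8.90% for all peaks up to 1 kb on chromosomes. The intervals overlap, and the isolated peaks were close to the background of 8.90%, which includes them. Overlap of intervals does not show that the shares are equal, and the difference was not tested. The share was larger among isolated than among other peaks on 11 of 18 chromosomes. An isolated peak without a listed gene may still lie at the TSS of a gene whose expression did not change, and the annotation of v9.1 was not used here, so these are not shares of promoters.

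By class of nearest gap, the share of direct targets was lowest where peaks were closest. It was 2.89% (19 of 658, exact 95% confidence interval 1.75 to 4.47%) at gaps up to 1 kb and 5.39% (32 of 594, 3.71 to 7.52%) at 1 to 10 kb. At 10 to 50 kb it was 10.4% (8.59 to 12.4%) and at 50 to 100 kb 12% (9.76 to 14.6%). Within the isolated peaks it was 10.0% (89 of 887, 8.14 to 12.2%) at 100 to 200 kb, 10.6% (112 of 1055, 8.82 to 12.6%) at 200 to 500 kb and 7.63% (38 of 498, 5.46 to 10.3%) over 500 kb. The interval of the last class overlaps those of its neighbours. In this respect isolated peaks with gaps up to 500 kb resembled peaks with neighbours at 10 to 100 kb. The value over 500 kb was lower, and no class was tested.

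**Figure D4:**
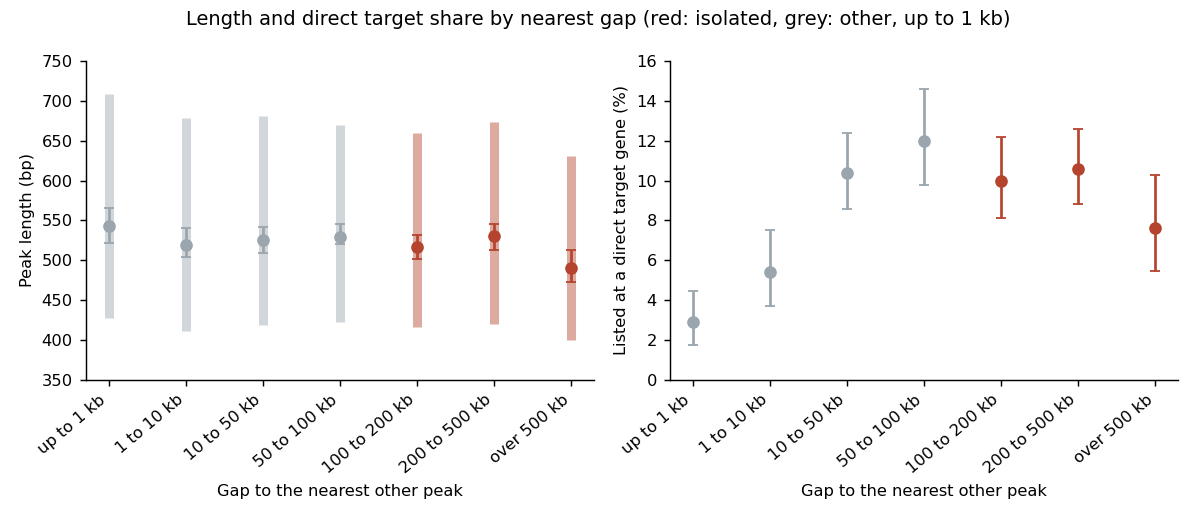
Etv6 peaks up to 1 kb on chromosomes by gap to the nearest other peak (x axis), isolated classes in red and other classes in grey. Left, peak length in bp, with points at the median, whiskers for its 95% interval and bars from the lower to the upper quartile (the y axis does not start at 0); right, percent of peaks listed at a direct target gene with exact 95% confidence intervals. The median length is lowest, 490.5 bp, over 500 kb, and the direct target share runs from 2.89% up to 1 kb to 12% at 50 to 100 kb.

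The isolated peaks at direct targets resembled the remaining isolated peaks in length, gap, position and runs. Their median length was 528 bp (95% interval 499 to 575 bp), against 516 bp (506 to 525 bp) for the 2201 isolated peaks at no listed gene. Median nearest gap was 249.5 kb at direct targets and 260.6 kb at the others. In bins 1 and 10 of the span lay 21.8% of the direct target peaks (16.7 to 27.5%) and 19.9% of the 2201 (18.2 to 21.6%). Runs of 3 or more contained 72.8% of the direct target peaks (66.7 to 78.3%) and 70.8% of the 2201 (68.9 to 72.7%). All these intervals overlap.

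The chromosomes differed in how many of their isolated peaks are listed at direct targets. The highest shares were 17.8% on 5S (21 of 118, exact 95% confidence interval 11.4 to 25.9%), 15.7% on 7S (16 of 102, 9.24 to 24.2%) and 15.2% on 5L (25 of 164, 10.1 to 21.7%). The lowest were 4.96% on 4S (6 of 121, 1.84 to 10.5%), 5.26% on 9_10S (7 of 133) and 5.32% on 8S (5 of 94). Both copies of chromosome 5 were therefore near the top. Among the other peaks up to 1 kb, the shares were 11.5% on 5S, 6.98% on 7S and 6.63% on 5L. They were 10.8% on 4S, 5.56% on 9_10S and 6.25% on 8S, each above the share of isolated peaks there. These chromosomes were picked by their rank among 18, and no test was run. By subgenome, the isolated peaks had 132 direct targets on L (10.1%, 8.50 to 11.8%) and 107 on S (9.47%, 7.82 to 11.3%).

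Seen from the side of the genes, 239 of the 488 direct target peaks up to 1 kb on chromosomes (49.0%) were isolated. Among all 5485 peaks up to 1 kb on chromosomes, direct targets included, 44.5% were isolated, and the difference was not tested. For direct target peaks the share was 48.4% on L (132 of 273, exact 95% confidence interval 42.3 to 54.5%) and 49.8% on S (107 of 215, 42.9 to 56.6%). Of the 239 genes, 158 carry a symbol and 81 only a locus name. Sorted into 5 functional lists, 50 of the genes with a symbol were placed. The lists were short sets of 13 to 33 chosen symbols and not an annotation, so other genes of the same functions lie outside them. One such gene is ell2.S, given above. Shares within a list therefore hold for its symbols and not for a functional class. The peaks of the 50 placed genes are given below by list, in each case for the 6 with the widest nearest gap.

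In the list of regulators of transcription and chromatin, 15 of 35 direct target peaks up to 1 kb were isolated (42.9%, against 49.0% of all direct target peaks), with lengths of 331 to 932 bp and a median nearest gap of 282.2 kb. The most isolated was the peak at vegt.L, which encodes a T-box factor of mesoderm and endoderm specification in Xenopus. It lay on 1L from 152660316 to 152660770, measured 456 bp and was 552.7 kb from its neighbour. At pitx3.S, a homeobox gene needed in lens and midbrain in the mouse, the peak lay on 7S from 31371878 to 31372214 and measured 338 bp, with a nearest gap of 473.6 kb. gli3.L encodes a zinc finger effector of Hedgehog signalling, and its peak on 6L, from 55740344 to 55740810, measured 468 bp with a nearest gap of 469.4 kb. The peak of the forkhead gene foxn2.S on 5S (23035663 to 23036409) measured 748 bp and had gaps of 421.3 kb before and 1956.1 kb after it. plag1.S, a zinc finger gene, had one of the longest direct target peaks of the isolated set, of 932 bp, on 6S from 92729954 to 92730884. id2.S encodes a helix-loop-helix inhibitor of DNA binding by other factors, and its peak of 378 bp on 5S (118180570 to 118180946) was 297.0 kb from the next. The remaining 9 had nearest gaps from 290.3 down to 101.7 kb. Direct target peaks of this list that were not isolated had a median nearest gap of 10.2 kb. It was 31.1, 67.3, 37.9 and 52.4 kb in the lists that follow, in their order. These values lie below those of isolated peaks because the sets were split by the gap.

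The list of cell cycle and DNA replication genes had 9 isolated peaks of 16 (56.2%). Their lengths, from 409 to 678 bp, left out both ends of the range of isolated peaks. ccne1, the gene of cyclin E1, which with its kinase partner drives entry into S phase, had isolated peaks at both copies. The ccne1.S peak lay on 4S from 47205414 to 47205821, measured 409 bp and was 1296.8 kb from its neighbour, a gap that 98.0% of isolated peaks did not exceed. The ccne1.L peak, on 4L from 60146528 to 60147204, measured 678 bp and had a nearest gap of 260.3 kb. cdc25c.L encodes the phosphatase that activates the mitotic kinase Cdk1, and its peak of 560 bp on 3L (40867995 to 40868553) had a nearest gap of 380.6 kb. kiaa0101, which encodes a factor bound to the replication clamp PCNA, again had both copies among the isolated peaks, with 506 bp and 215.0 kb at the L copy and 530 bp and 222.3 kb at the S copy. At cdkn1a.L, the gene of the cell cycle inhibitor p21, the peak lay on 2L from 54365131 to 54365739, measured 610 bp and was 198.8 kb from the next. The other 3 genes had nearest gaps of 136.6, 128.3 and 116.3 kb.

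Among the listed genes of stress and growth control, 7 of 11 direct target peaks were isolated (63.6%). The 7 had a median nearest gap of 241.0 kb. The widest gap in this list, 338.6 kb, was found at uvrag.L, which encodes a regulator of autophagy, with a peak of 431 bp on 2L (178868912 to 178869341). eef2k.L encodes the kinase that inhibits translation elongation factor 2, and its peak of 428 bp on 9_10L (100969414 to 100969840) had a nearest gap of 289.6 kb. ddit4.S, an inhibitor of mTORC1 induced by stress, had a peak of 491 bp on 7S (28493995 to 28494484) in the run described above. The sesn1.L peak, at a gene of the sestrin family of stress-induced inhibitors of mTORC1, lay on 5L from 79399328 to 79399938 and measured 612 bp. Its nearest neighbour, 241.0 kb away, was the peak listed at foxo3.L, which was itself 14.6 kb from another peak and therefore not isolated. mknk2.L, encoding a kinase of the cap-binding factor eIF4E, and trib1.S, encoding a pseudokinase, had peaks of 560 and 501 bp with nearest gaps of 212.6 and 178.1 kb. The last of the 7 peaks measured 701 bp, with a nearest gap of 162.0 kb.

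Of the 16 direct target peaks at the listed genes of signalling between cells, 8 were isolated (50%). Their lengths ran from 289 to 764 bp, with a median of 361.5 bp, and were not tested against the other lists. Widest of all isolated direct target peaks was the gap at crim1.L, which encodes a transmembrane protein that binds BMP and VEGF ligands. The crim1.L peak lay on 5L from 47142154 to 47142532, measured 380 bp, and had no other peak for 2480.4 kb before and 1537.9 kb after it. jag2, the gene of a Notch ligand, had isolated peaks at both copies. They measured 345 bp at jag2.L, on 8L from 76877609 to 76877952, and 368 bp at jag2.S, on 8S from 9246891 to 9247257, and their nearest gaps were 544.5 kb at the L and 404.7 kb at the S copy. jak1.L, encoding a tyrosine kinase of cytokine receptors, had a peak of 341 bp on 4L (73915392 to 73915731) with a nearest gap of 522.0 kb. notum1.S encodes an extracellular enzyme that inactivates Wnt ligands, and its peak on 9_10S (23635103 to 23635390) measured 289 bp, a length that all but 2.30% of isolated peaks exceeded. The peak at the Wnt receptor gene fzd3.S was the longest of this list, with 764 bp on 5S (131879202 to 131879964) and a nearest gap of 272.2 kb. The remaining peaks had nearest gaps of 269.0 and 170.5 kb.

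In the list for metabolism, 11 of 17 direct target peaks up to 1 kb were isolated (64.7%). The 11 had a median nearest gap of 193.7 kb, the lowest of the 5 lists. pfkp.L encodes a phosphofructokinase, the enzyme of the committed step of glycolysis, and its peak of 712 bp on 6L (16518046 to 16518756) had the widest gap of the list, 404.8 kb. pygl.S, the liver form of glycogen phosphorylase, and gch1.S, the first enzyme of tetrahydrobiopterin synthesis, had neighbouring peaks on 8S, 633.8 kb apart. The pygl.S peak (12654390 to 12655049) measured 661 bp with a nearest gap of 294.8 kb, and the gch1.S peak (13288830 to 13289300) measured 472 bp with a nearest gap of 251.7 kb. ahcy.L encodes the hydrolase of S-adenosylhomocysteine, a product of methylation reactions, and its peak of 583 bp on 9_10L (32757570 to 32758151) was 206.9 kb from the next. pfkfb3, whose product makes an activator of phosphofructokinase, had isolated peaks at both copies, of 324 bp at the L and 305 bp at the S copy. gldc.S, of the glycine cleavage system, had a peak of 289 bp on 1S (103729727 to 103730014) with a nearest gap of 193.7 kb. The remaining peaks had nearest gaps from 183.2 kb down to 101.1 kb. The share of isolated peaks in these lists, from 42.9 to 64.7%, rests on 11 to 35 peaks each and on which symbols were chosen. No list was tested against the 49.0% of all direct target peaks.

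Among all isolated direct target peaks, the widest nearest gaps were those at crim1.L, khdrbs3.L and ccne1.S, of which khdrbs3.L is in none of the lists. khdrbs3 encodes an RNA-binding protein that regulates splicing, and its peak of 617 bp on 6L (146925326 to 146925941) was 1430.8 kb from its neighbour. The longest isolated direct target peak was at rbl2-like.L, on 4L from 39239430 to 39240424, with 996 bp, followed by that at pitpnb.2.L, a gene of phosphatidylinositol transfer, on 1L from 149520167 to 149521098, with 933 bp. The shortest were at plekha1.S, given above, and at eif5a.S and ldlrad3.L. eif5a encodes a translation factor, and its peak on 5S (92759041 to 92759273) measured 234 bp. The ldlrad3.L peak, at a gene with LDL receptor domains, measured 259 bp on 4L (7836878 to 7837135).

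The L and S copies of a gene allow isolation to be compared between homeologous sites. Of the direct target genes on chromosomes, 31 have a listed peak at both copies. In 11 of these pairs both peaks were isolated, in 8 pairs 1 was, and in 12 neither was. Over all 62 copies in these pairs, 30 (48.4%) were isolated. Where the L copy was isolated, the S copy was isolated in 11 of 16 pairs (68.8%), and where the L copy was not, in 3 of 15 (20.0%). These shares were not tested. Spearman's rho across the 31 pairs was 0.172 for the nearest gap and 0.448 for peak length. It is given as a description, since the pairs share chromosomes and the same list. The 8 pairs with 1 isolated copy had the L copy isolated in 5 and the S copy in 3. In 4 of the 31 pairs, a copy with a gap over 100 kb was left out by its length alone. One of these was pdk3, whose L peak of 481 bp was isolated at 101.1 kb, while the S peak of 1058 bp at 117.7 kb was not counted.

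**Figure D5:**
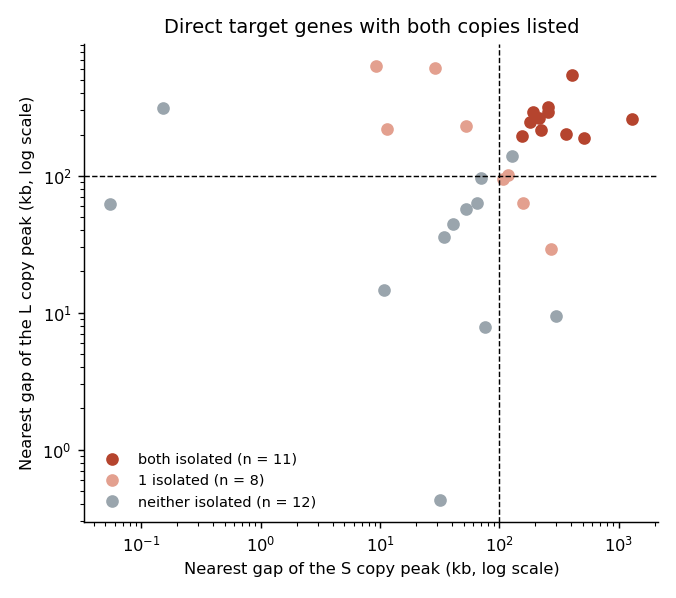
Nearest gap in kb of the peak at the L copy (y axis, log scale) against that at the S copy (x axis, log scale) for 31 direct target genes with both copies listed; dashed lines mark 100 kb. By definition, the 11 pairs with both copies isolated (red) lie in the upper right, beyond both lines. The 8 pairs with 1 copy isolated (pale red) lie mostly in the neighbouring quadrants, and the 12 with neither isolated (grey) include some beyond a line whose peak measured over 1 kb.

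The 11 genes with both copies isolated were ccne1, dip2a, e4f1, jag2, kiaa0101, march8, pfkfb3, ppm1e, ppp2r3a, tcp11l2 and yif1b. In 9 of these pairs the lengths at both copies were within 100 bp of each other, and the median length was 413 bp at the L and 409 bp at the S copies. The definition keeps peaks over 1 kb out of these pairs, so that part of this closeness can follow from the rule. Among the remaining pairs, lengths within 100 bp of each other occurred only at tnk2, slc30a1, numb, mtfr1l, MGC75753 and LOC100145479. Most of the remaining pairs differed by more, up to 604 bp at foxo3. Closeness in length was thus less frequent there, though not absent, and it was not tested between the kinds of pair. Of the 11 pairs with both copies isolated, the peak was longer on L in 5, and the nearest gap was wider on L in 7. dip2a had 644 bp at the L copy and 661 bp at the S copy, with nearest gaps of 262.2 kb on 9_10L and 212.5 kb on 9_10S. At e4f1, which encodes a zinc finger protein that modifies p53 in mammals, the lengths were 413 bp at the L copy and 331 bp at the S copy, with gaps of 290.3 kb and 254.5 kb. ppp2r3a, a regulatory subunit of protein phosphatase 2A, had 413 bp on 5L and 398 bp on 5S. The pairs that differed by more than 100 bp were ccne1, longer by 269 bp on L, and ppm1e, a gene of a metal-dependent phosphatase, with 364 bp on L and 506 bp on S. The march8 peaks measured 626 bp at the L and 719 bp at the S copy, and those of yif1b, a gene of transport between endoplasmic reticulum and Golgi, 378 bp at the L and 281 bp at the S copy.

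The other copy of a gene at an isolated peak was usually not in the direct target list. Of the 158 genes with a symbol at isolated peaks, 27 (17.1%, exact 95% confidence interval 11.6 to 23.9%) had the other copy listed, against 21 of 145 (14.5%, 9.19 to 21.3%) for direct targets at other peaks up to 1 kb. By symbol, 118 of the 158 and 117 of the 145 were found in the RefSeq gene table of the v10.1 genome. That table also names the other copy for 94 of the 118 (79.7%, 71.3 to 86.5%) and for 93 of the 117 (79.5%, 71.0 to 86.4%). Retention of the other copy by name was therefore nearly the same in both sets, with overlapping intervals.

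Each peak of the deposited list also carries a number that rises along the file with gaps, and what it counts is not stated. The definition of isolated peaks did not use it. No number was missing on either side of 208 isolated peaks (8.52%, exact 95% confidence interval 7.45 to 9.70%), against 1034 other peaks (34.0%, 32.3 to 35.7%). A total of 1 or 2 numbers was missing beside 877 isolated peaks (35.9%), 3 to 5 beside 882 (36.1%) and more than 5 beside 473 (19.4%). Missing numbers grew with the width of an interval but were thinner per Mb in wide ones. Intervals over 100 kb between neighbouring peaks held 6778 missing numbers in 2427.1 Mb, or 2.79 per Mb, while intervals up to 100 kb held 583 in 67.4 Mb, or 8.65 per Mb. In intervals over 1 Mb the value was 2.36 per Mb. The gaps, which go with the number missing, were fixed by the definition, so the shares of isolated and other peaks are given as a description.

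The 208 isolated peaks with no number missing beside them had a median nearest gap of 168.6 kb, against 273.9 kb for the 2232 with at least 1. Their median length was 533 bp, against 515 bp for the 2232. Direct targets were listed at 23 of the 208 (11.1%, exact 95% confidence interval 7.14 to 16.1%) and at 216 of the 2232 (9.68%, 8.48 to 11%). The median of numbers missing was 2 at isolated direct target peaks and 3 at isolated peaks with no listed gene. fzd3.S and pdk3.L, both described above, were among the list genes with no number missing on either side of their peak.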

How the data were processed

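The authors trimmed the reads of 3 Etv6 ChIP and 3 input samples with Trimmomatic 0.32 and aligned them by BWA 0.7.12 against X. laevis v9.1. Peaks were called for every replicate with its input by MACS2, and DiffBind kept those found in all 3 replicates. Each deposited row gives start, end, a number and a score. The deposited score is 0 throughout and was left aside. The number of columns with values of single samples is 0, so the list gives no depth, and the study's read totals were not used here.

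Length was end minus start. Printed starts have 2 bp added to the deposited start, which matches the positions in the study's direct target list (545 rows). That list was used for names and positions only, joined by an overlap of at least 1 bp, and its expression values were not used.

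Shares have exact (Clopper-Pearson) 95% confidence intervals and medians 95% intervals from order statistics, both for counting error only. Peaks share their source and are not replicates, so no test was run. Named genes were direct targets in 5 functional lists (at most 30, the 6 with the widest gap in each, a limit set after they were counted), those at extreme gaps or lengths, peaks at the limits, and the longest run. Both-copy pairs and the 7S run came in addition. Isolated peaks and gene lists were chosen with earlier results of these data known. The scripts were tested on simulated data. Sequences of v9.1 were not used here, so planned motif counts were not run. Python 3.11.15 was used with Matplotlib 3.10.9, SciPy 1.17.1, pandas 2.3.3 and NumPy 2.4.6.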

Additional observations from a re-analysis of the deposited data

How the results depend on the processing

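No paired analysis was possible because single samples have no values in the deposited peaks, and leaving out each replicate was not run for that reason. Of 24 alternatives over 5 results, 19 left a share or median within its interval, or a number of peaks within 1.5 times. Some of these could hardly differ. Matching within 10 kb of a listed peak could not add a direct target, since isolated peaks had no other peak within 100 kb. That alternative and a larger required overlap with the listed peak both gave the reported 9.80%, and neither is evidence of stability. A gap over 200 kb in place of 100 kb left 1553 isolated peaks, and a length of at most 500 bp left 1137. Without a length limit the median length was 534.5 bp. The share with no number missing on either side was 11.6% with a gap over 50 kb and 5.15% with a gap over 200 kb. These 5 changes follow from how each alternative selects peaks. The share on L ran from 53.4 to 54.2% and the direct target share from 9.23 to 10.3% over their alternatives. Motif counts were not run. Sites that were not called in all 3 replicates are outside the list, so isolation is relative to this list.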
